A study of Bos taurus with 12 samples.

Results

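Amino acid (AA) transporters are the membrane proteins that carry AA into, out of and within the cell. The transporters described here are 35 genes of the solute carrier families SLC1, SLC3, SLC6, SLC7, SLC16, SLC36, SLC38 and SLC43, taken as a list of gene names, and all 35 were found among the 30336 genes of the count files. Their mRNA was measured by sequencing of polyadenylated RNA in 12 liver libraries, labelled as 12 Holstein heifer calves at 4 d of age. The 6 calves of the CON group were born to cows fed a basal close-up diet without added Met, and the 6 calves of the MET group to cows that, over the last 28 d before calving, ate the same diet with Met shielded from the rumen by ethyl cellulose. After birth the calves of both groups were managed alike, with first colostrum from their own dam and then the same milk replacer and starter. The comparison between groups asks whether the Met supply of the cow in late gestation went along with another mRNA level of these carriers in the newborn liver.

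The liver takes up a large part of the AA that reach it in portal blood and releases others, and single carriers have distinct tasks in it. Sodium-coupled carriers of the SLC38 family concentrate small neutral AA and glutamine in the hepatocyte, carriers of the SLC1 family take up glutamate or exchange neutral AA, and the SLC6 carriers move taurine, glycine and betaine. The SLC7 light chains need a heavy chain of the SLC3 family to reach the membrane, whereas the cationic carriers SLC7A1 and SLC7A2 work without one. Members of SLC43 and SLC16 let large neutral and aromatic AA, in some cases Met among them, pass down their gradient, and some SLC36 and SLC38 proteins sit in the lysosome, where AA are sensed. Several of these genes are known to be induced by the transcription factor ATF4 when AA are scarce.

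Each library held between 8277789 and 10397604 counted reads, and 3 reads, the floor used here, were 0.289 to 0.362 CPM (reads scaled to a common library total), with counting error only in mind. The CON libraries 1 and 4 were nearly alike, as were the MET libraries 1 and 3: the chi-square per gene was at most 1.334 within these pairs and at least 25.13 within the other 64 pairs. An alike pair may hold the same calf's RNA, although its labels name separate calves. Each alike pair was therefore counted as 1 sample in the means, which leaves 5 samples per diet. Each test was made on the 12 libraries, and then again on 10 samples in which a pair entered as the sum of its reads. One first index was used for all CON libraries and another for all MET libraries, so index and diet cannot be told apart. Hepatocyte markers were abundant in every sample, with a summed level of 94200 to 127000 CPM in CON and 74700 to 112000 CPM in MET for the 8 genes. Of these, 6 had negative log2 fold changes, 2 of them, ALB and APOB, with an unadjusted p of at most 0.05 (edgeR), where 10.4% of all genes had such a p and were lower in MET. ALB had -0.65 (FDR 0.107, edgeR) and APOB -0.38 (FDR 0.0859, edgeR), and for APOB all MET samples lay below all CON samples. After a trend on gene length was removed, ALB was at -0.66 (unadjusted p = 0.0040, FDR 0.119, edgeR). APOB was then at -0.19 (unadjusted p = 0.101, FDR 0.374, edgeR). Without this correction, the 10 samples gave -0.66 for ALB (unadjusted p = 0.0201, FDR 0.233, edgeR) and -0.41 for APOB (unadjusted p = 0.0079, FDR 0.188, edgeR). In whole tissue, fewer cells of a type and less RNA per cell cannot be told apart.

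No AA transporter passed the test between the diets. Of the 35 genes, 27 had enough reads to be tested, and in the 12 libraries the quasi-likelihood test of edgeR gave 0 of these 27 a false discovery rate (FDR) of 0.10 or less, where 4.41% of all 13212 genes tested had one. At an unadjusted p of at most 0.05 there were 4 of 27, where 20.5% of all genes tested had such a p, so the count was near the background. Among the 4, SLC3A2, SLC43A1 and SLC7A7 had positive log2 fold changes, against 10.2% of all genes, and SLC1A1 a negative one, against 10.4%. Over the 10 samples, 0 of 27 had an FDR of at most 0.10, as had 0 of all 13212 genes. An unadjusted p of 0.05 or less was left for SLC3A2 and SLC43A1, 2 of 27, against 16.4% of all genes. The limma voom fit of the 12 libraries called 0 members, against 4.21% of all genes, and DESeq2 called 1, SLC3A2, with an adjusted p of 0.0640, against 9.95% of all genes, and gave no adjusted p for 2, SLC1A1 and SLC1A3. DESeq2 over the 10 samples called 0 members, against 4.72% of all genes.

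As a group, the 27 tested transporters had a median log2 fold change, MET minus CON, of 0.11, beside -0.0031 for all genes tested, with 16 higher and 11 lower in MET. Over the 10 samples the median was 0.085, beside -0.0023, with 15 higher and 12 lower. These values moved when a smooth trend on gene length was removed from each library: the median was then 0.17, beside 0.019 for all genes, with 20 higher and 7 lower, and over the 10 samples it was 0.14, beside 0.024, again with 20 and 7. SLC1A2, SLC36A1, SLC7A1 and SLC7A6 had negative log2 fold changes over the 12 libraries and positive ones after this correction. The diets overlapped for every tested transporter: in 0 of 27 genes did the 5 MET samples all lie on one side of the 5 CON samples. This was so for 3.7% of all genes tested, so the count was near the background.

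**Figure D1:**
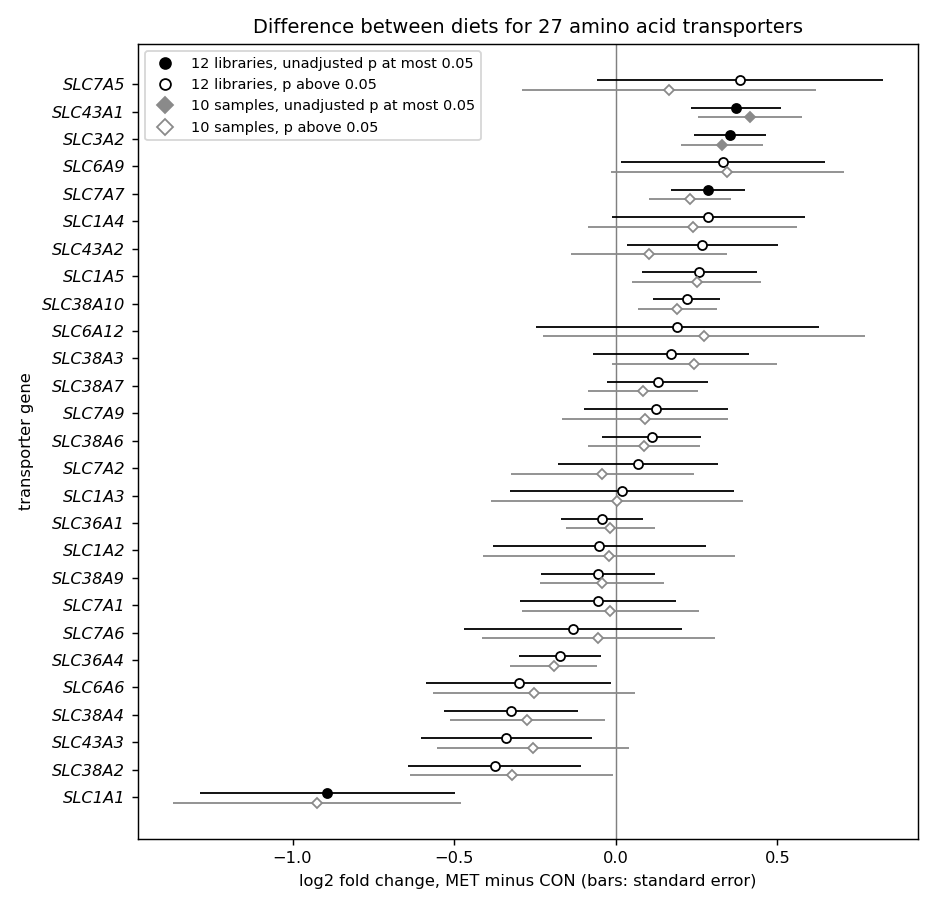
Log2 fold change (MET minus CON) of the 27 tested amino acid transporters, with bars of 1 standard error. Black circles are the fit of 12 libraries and grey diamonds that of 10 samples, filled where the unadjusted p was at most 0.05: 4 circles and 2 diamonds are filled, and SLC1A1 is the farthest from 0, at -0.89 over 12 libraries and -0.92 over 10 samples.

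Levels between genes are compared as RPKM, the CPM divided by the exonic length in kilobases. A few carriers made up most of the transporter mRNA. The 6 with the highest mean RPKM, SLC38A4, SLC43A1, SLC38A3, SLC38A2, SLC38A10 and SLC3A2, held 71.7 to 79.8% of the summed RPKM of the 35 genes in each sample. SLC38A4 led with 72.0 ± 20.3 RPKM (SD, n = 10), followed by SLC43A1 with 52.4 ± 12.2 and SLC38A3 with 41.2 ± 13.1. In 8 of 10 samples SLC38A4 exceeded SLC43A1, and in 8 of 10 SLC43A1 exceeded SLC38A3. The next places were not separated: SLC38A2 had 17.3 ± 6.89 RPKM, SLC38A10 15.0 ± 1.96 and SLC3A2 14.6 ± 2.49, and SLC38A2 was above SLC38A10 in 6 of 10 samples and SLC38A10 above SLC3A2 in 5 of 10. SLC7A2 with 12.8 ± 4.08 and SLC7A7 with 10.2 ± 1.56 RPKM completed the 8 carriers with at least 10 RPKM. Another 11 had 1 to 10 RPKM, and 16 were under 1 RPKM, 8 of them tested. The median of the tested carriers was 2.57 RPKM, beside 5.13 for all genes tested.

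**Figure D2:**
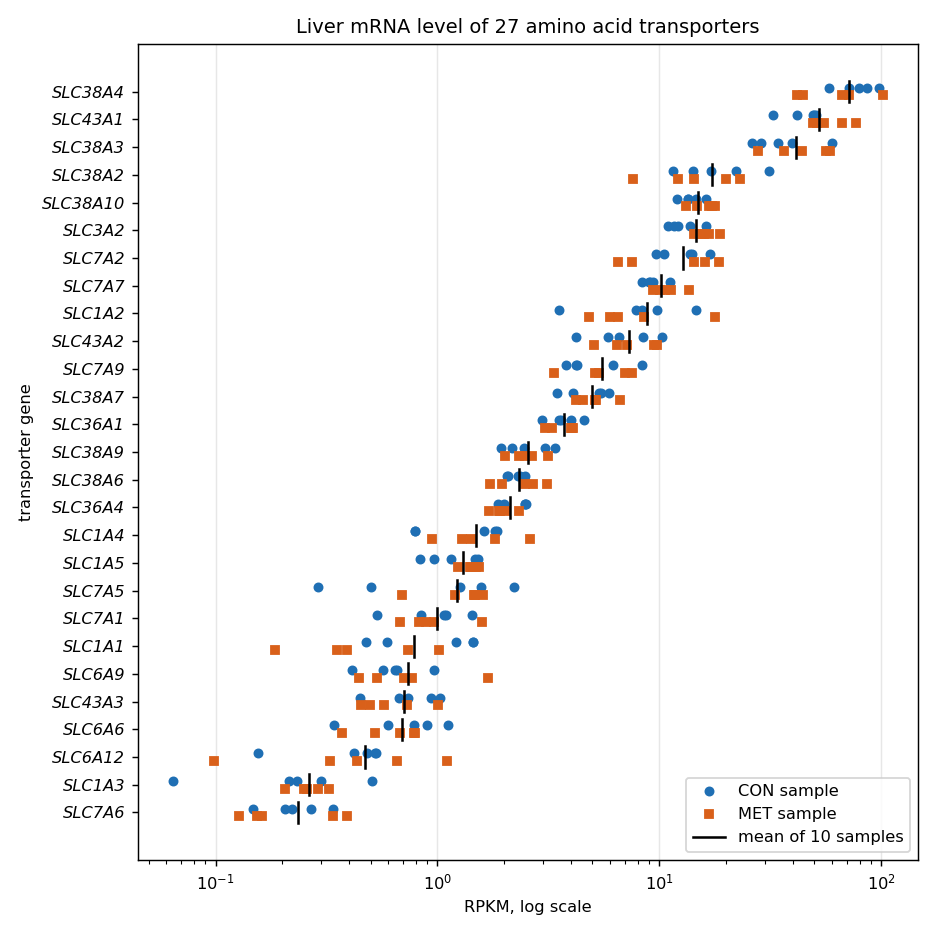
mRNA level in RPKM, on a log axis, of the 27 tested transporters in the 5 CON samples (circles) and 5 MET samples (squares), ordered by the mean of the 10 samples (black bar). The levels run from 72.0 RPKM for SLC38A4 to 0.235 RPKM for SLC7A6, and circles and squares overlap in every row.

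The carriers also differed in how much they varied over the 10 samples, where counting error and the 2 diets add to differences among calves. The coefficient of variation over the 10 samples had a median of 31.4% and ran from 13.1% for SLC38A10 to 59.1% for SLC1A1. SLC36A1 (13.9%), SLC36A4 (14.1%) and SLC7A7 (15.3%) were also steady, while SLC6A12 (58.9%) and SLC1A2 (49.9%) were not. Counting error is large for SLC1A1 and SLC6A12, with 3 to 22 and 6 to 57 reads per library, where SLC38A10 had 541 to 864. The sample MET4 had the highest CPM of the 10 for 10 of the 27 carriers, and CON6 and MET2 the lowest for 6 each. In what follows, the 5 CON values are given in the order pair 1 and 4, then 2, 3, 5 and 6, and the 5 MET values in the order pair 1 and 3, then 2, 4, 5 and 6. The plot of the carriers given in full shows the same values.

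By the mean of the 10 samples, the SLC38 family held 4 of the 5 most abundant carriers, the other being SLC43A1, although SLC38A2, SLC38A10 and SLC3A2 were not separated. None of its 7 tested genes, of 9, had an unadjusted p at or below 0.05, where 20.5% of all genes had one. With so few genes, this count was near the background. The log2 fold changes of the 7 genes lay between -0.38 and 0.22, with 4 higher and 3 lower in MET. SLC38A4 (chromosome 5, 33570563 to 33656476, assembly UMD 3.1.1) encodes SNAT4, a carrier of neutral and cationic AA that is typical of liver. It was at 406, 330, 358, 297 and 242 CPM in CON and at 277, 173, 421, 296 and 185 CPM in MET. The highest of the 10 samples and the lowest were both MET, and the CON values all lay between them. The means were 327 ± 62.2 CPM in CON and 270 ± 101 CPM in MET (SD, n = 5 each). The log2 fold change was -0.32 (SE 0.21, unadjusted p = 0.138, FDR 0.394, edgeR), and it was -0.27 over the 10 samples (SE 0.24, unadjusted p = 0.276, FDR 0.599, edgeR). An exact two-sided permutation test of the 5 against 5 samples gave p = 0.246.

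SLC38A2 (chromosome 5, 34028553 to 34042997) encodes SNAT2, the system A carrier whose mRNA is known to increase when AA are withdrawn. Its CPM was 107, 82.5, 149, 54.9 and 67.7 in CON and 68.5, 36.5, 111, 95.0 and 58.2 in MET. The lowest value was MET2 and the highest CON3, with wide overlap between them. Means of 92.1 ± 37.0 CPM in CON and 73.8 ± 29.4 CPM in MET (SD, n = 5 each) gave a log2 fold change of -0.38 (SE 0.27, unadjusted p = 0.183, FDR 0.452, edgeR), with an exact permutation p of 0.413. SLC38A3 (chromosome 22, 50702769 to 50717523) encodes SNAT3, the system N carrier of glutamine, histidine and asparagine. It was at 176, 116, 76.5, 101 and 84.1 CPM in CON and at 165, 81.4, 108, 172 and 130 CPM in MET. Low and high samples were found in both diets, and the MET range lay within the CON range. The log2 fold change was 0.17 (SE 0.24, unadjusted p = 0.491, FDR 0.729, edgeR), with an exact permutation p of 0.381.

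SLC38A10 (chromosome 19, 52045201 to 52086311), a widely expressed member with a less well defined role, was the steadiest transporter. It was at 63.1, 76.2, 68.4, 63.0 and 56.0 CPM in CON and at 80.8, 61.8, 78.4, 82.9 and 68.8 CPM in MET. Of the MET samples, 3 lay above all CON samples, and 1 CON sample lay below all MET samples. The means were 65.3 ± 7.49 and 74.5 ± 8.93 CPM (SD, n = 5 each), with a log2 fold change of 0.22 (SE 0.10, unadjusted p = 0.0526, FDR 0.249, edgeR). Over the 10 samples it was 0.19 (SE 0.12, unadjusted p = 0.144, FDR 0.459, edgeR). An exact permutation test of the 10 samples gave p = 0.119, and over the 12 libraries p = 0.0411. Fold changes of these libraries moved with gene length: across the 13212 genes, log2 fold change and log2 exonic length had a Pearson r of -0.26, a description over genes that are not independent. The tested transporters were long, with a median of 4143 exonic bases beside 2807 for all genes tested. After a smooth trend on length had been removed from each library, SLC38A10 had a log2 fold change of 0.30 (unadjusted p = 0.0102, FDR 0.158, edgeR). With the same correction, the 10 samples gave 0.28 (unadjusted p = 0.0405, FDR 0.332, edgeR).

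The other SLC38 genes were below these. SLC38A7, a lysosomal exporter of glutamine and asparagine, had 4.998 ± 0.947 RPKM (SD, n = 10) and a log2 fold change of 0.13 (SE 0.15). SLC38A9, the lysosomal arginine sensor upstream of mTORC1, had 2.57 ± 0.494 RPKM and -0.05 (SE 0.18), and SLC38A6 had 2.33 ± 0.397 RPKM and 0.11 (SE 0.15). SLC38A11 and SLC38A1 were below the filter, with 0 to 18 and 0 to 5 reads per library. SLC38A1, which encodes SNAT1, a glutamine carrier known from brain, lies only 80.9 kb from SLC38A2 on chromosome 5 with no annotated gene between them, yet it had 0.035 RPKM where SLC38A2 had 17.3.

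**Figure D3:**
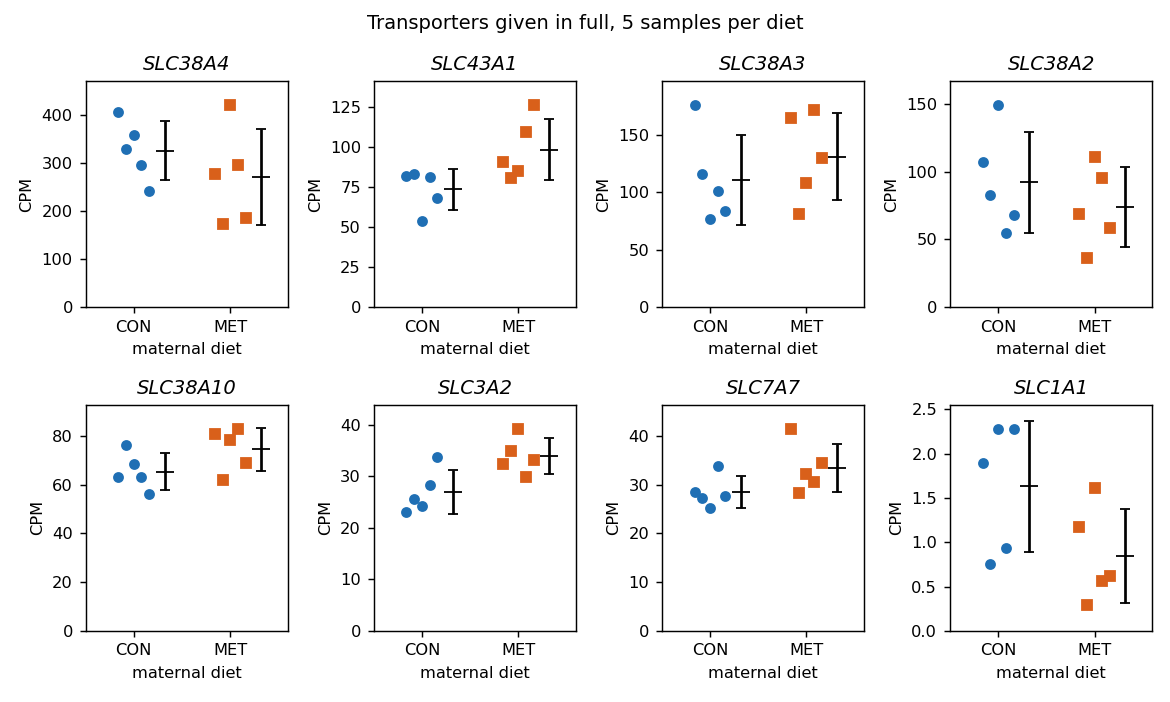
CPM of the 8 transporters given in full in the 5 CON samples (circles) and the 5 MET samples (squares), each panel starting at 0, with the mean and SD beside the points. For SLC3A2, 4 of the 5 CON samples lie below all MET samples, and for SLC43A1, 4 of the 5 MET samples lie above all CON samples.

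SLC3A2 had the smallest p of the transporters but did not pass the test. It encodes the heavy chain 4F2hc (CD98), which carries the light chains for large neutral and cationic AA to the membrane, and lies on chromosome 29, 41855871 to 41896761. The CPM was 23.0, 25.5, 24.2, 28.4 and 33.8 in CON and 32.4, 34.9, 39.2, 29.8 and 33.1 in MET. Of the CON samples, 4 lay below all MET samples, and CON6 lay above 3 of them. The means were 26.96 ± 4.31 CPM in CON and 33.9 ± 3.48 CPM in MET (SD, n = 5 each). The log2 fold change was 0.35 (SE 0.11, unadjusted p = 0.0072, FDR 0.113, edgeR), which is outside the threshold of 0.10. Over the 10 samples it was 0.33 (SE 0.13, unadjusted p = 0.0232, FDR 0.242, edgeR), and an exact permutation test gave p = 0.0317, where 0.00794 is the smallest possible. Without the library CON6 the fit of the remaining libraries gave 0.44 (unadjusted p = 0.000768, FDR 0.0735, edgeR), but over the 10 samples the same omission gave an FDR of 0.246. There the unadjusted p was above 0.05 without the CON pair (0.0588), CON3 (0.0536) or MET4 (0.0596, edgeR). The other heavy chain, SLC3A1 (rBAT), which pairs with SLC7A9 for cystine and cationic AA, had 0 to 3 reads per library, at or under the floor.

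Among the light chains, 4 of 7 were tested, and SLC7A7 alone had an unadjusted p of at most 0.05. SLC7A7 (chromosome 10, 21827199 to 21864024) encodes y+LAT1, the exporter of lysine and arginine, which is also known from macrophages. It was at 28.4, 27.2, 25.2, 33.9 and 27.7 CPM in CON and at 41.4, 28.3, 32.2, 30.6 and 34.4 CPM in MET. The highest sample was the MET pair, 2 of 5 MET samples lay above all CON samples, and 3 of 5 CON samples lay below all MET samples. The means were 28.5 ± 3.26 and 33.4 ± 4.98 CPM (SD, n = 5 each). The log2 fold change was 0.29 (SE 0.11, unadjusted p = 0.0257, FDR 0.184, edgeR) and, over the 10 samples, 0.23 (SE 0.13, unadjusted p = 0.0923, FDR 0.387, edgeR). The exact permutation p was 0.0873 over the 10 samples and 0.0325 over the 12 libraries.

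Some macrophage markers also had higher means in MET. All 6 markers of Kupffer cells and macrophages had positive log2 fold changes, 3 of them with an unadjusted p of at most 0.05, where 10.2% of all genes had such a p and were higher in MET. These were C1QB with 0.39 (FDR 0.0855, edgeR), CD68 with 0.39 (FDR 0.106, edgeR) and C1QA with 0.34 (FDR 0.165, edgeR), and MARCO was the lowest with 0.10 (FDR 0.759, edgeR). Over the 10 samples, where 16.4% of all genes had such a p, it was 2 of 6, C1QB (FDR 0.213, edgeR) and CD68 (FDR 0.240, edgeR). None of the 6 had an FDR of at most 0.10, and MARCO was at 0.017. The summed level of the 6 was 963 to 1370 CPM in CON and 1130 to 1530 CPM in MET, and no marker was at 0. Of the 6 markers of stellate cells and fibroblasts, all had lower means in MET, with a summed level of 553 to 823 CPM in CON and 409 to 676 CPM in MET. Among them 2, LUM and PDGFRB, had an unadjusted p of at most 0.05, beside 10.4% of all genes for lower values, and LUM alone over the 10 samples. The FDR of LUM was 0.0985 in the 12 libraries but 0.211 in the 10 samples (edgeR). All 4 tested T and B lymphocyte markers, of 6, had positive log2 fold changes, with 0 at an unadjusted p of at most 0.05 (edgeR). The summed level of the 6 was 25.5 to 51.0 CPM in CON and 45.0 to 53.1 CPM in MET. Of the 6 endothelial markers, 2 were higher and 4 lower, and KDR alone had such a p (-0.26, unadjusted p = 0.0454, edgeR). Cholangiocyte and erythroid markers had 0 at such a p. The part of these cell types in the values of SLC7A7 and SLC3A2 was not tested.

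Of the other light chains, SLC7A9, the b0,+ carrier of cystine and cationic AA, had 5.53 ± 1.71 RPKM (SD, n = 10) and a log2 fold change of 0.12 (SE 0.22), although its known partner SLC3A1 was near 0. SLC7A5 (LAT1), a carrier of large neutral AA including Met, was at 1.23 ± 0.583 RPKM and differed widely among CON calves, with 1.17, 2.01, 8.90, 5.10 and 6.32 CPM, while the MET samples had 6.45, 5.94, 5.86, 4.80 and 2.78 CPM. All 5 MET samples lay within the CON range, and the log2 fold change of 0.38 had an SE of 0.44 (unadjusted p = 0.400, FDR 0.661, edgeR). Over the 10 samples, where the low CON pair counts once, it was 0.16 (SE 0.46, unadjusted p = 0.724, FDR 0.891, edgeR). SLC7A6 (y+LAT2) had 0.235 ± 0.0938 RPKM and -0.13 (SE 0.34). SLC7A8 (LAT2) had 3 to 12 reads per library. SLC7A10 (Asc-1) and SLC7A11 (xCT, the cystine and glutamate exchanger) had 0 to 1 reads each, under the floor.

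SLC3A2 was set against the light chains that can pair with it and that were tested, 3 relations in all, over the 10 samples on the log2 CPM scale. For SLC7A5, Pearson's r was 0.471 (permutation p = 0.171, adjusted 0.311) and Spearman's rho 0.321 (permutation p = 0.366, adjusted 0.584), and r was 0.619 without the CON pair and CON3, the samples farthest from the median of SLC3A2. For SLC7A6, r was 0.177 (permutation p = 0.619, adjusted 0.619) and rho 0.200 (permutation p = 0.584, adjusted 0.584), with r = 0.395 without the same samples. For SLC7A7, r was 0.437 (permutation p = 0.207, adjusted 0.311) and rho 0.309 (permutation p = 0.389, adjusted 0.584), with r = 0.159 without them. No relation passed the test. With the values centred within each diet, r was 0.437 for SLC7A5, 0.342 for SLC7A6 and 0.066 for SLC7A7, with p of 0.333, 0.313 and 0.857 in an exact permutation test over the 14400 arrangements within diets.

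**Figure D4:**
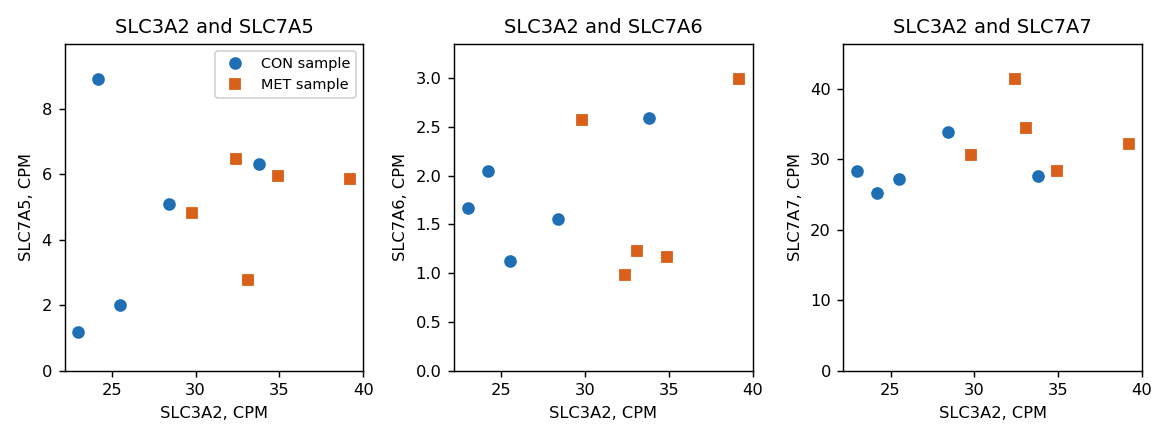
CPM of the light chains SLC7A5, SLC7A6 and SLC7A7 (vertical axes, from 0) against CPM of the heavy chain SLC3A2 (horizontal axes, not from 0) in the 5 CON samples (circles) and 5 MET samples (squares). The points scatter in all 3 panels, with r between 0.177 and 0.471.

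The cationic carriers SLC7A2 and SLC7A1 did not pass the test. SLC7A2 (CAT2), the arginine carrier typical of liver, had 12.8 ± 4.08 RPKM (SD, n = 10) and SLC7A1 (CAT1), the form of most other tissues, 0.992 ± 0.321 RPKM. SLC7A2 was at 94.3 ± 21.7 CPM in CON and 91.7 ± 38.8 CPM in MET (SD, n = 5 each), and its log2 fold change was 0.07 (SE 0.25) in the 12 libraries and -0.04 over the 10 samples (SE 0.28). SLC7A1 had a log2 fold change of -0.06 (SE 0.24). In SLC7A2 the samples MET2 and MET6, with 47.4 and 54.6 CPM, were the lowest of the 10, and MET4, with 135 CPM, the highest.

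In the SLC43 and SLC16 families, SLC43A1 alone of 3 tested genes had an unadjusted p at or below 0.05. It encodes LAT3, a facilitated carrier of branched-chain AA, phenylalanine and Met, and lies on chromosome 15, 82050595 to 82081172. Its CPM was 81.9, 83.2, 53.6, 80.9 and 68.3 in CON and 90.8, 80.7, 84.8, 109 and 126 in MET. Of the MET samples, 4 lay above all CON samples, and MET2 was level with the higher CON samples. The means were 73.6 ± 12.7 CPM in CON and 98.2 ± 18.9 CPM in MET (SD, n = 5 each). The log2 fold change was 0.37 (SE 0.14, unadjusted p = 0.0188, FDR 0.161, edgeR), and over the 10 samples it was 0.42 (SE 0.16, unadjusted p = 0.0249, FDR 0.247, edgeR), with an exact permutation p of 0.0317.

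Of the relatives of SLC43A1, SLC43A2 (LAT4), with similar substrates, had 7.34 ± 2.08 RPKM (SD, n = 10) and differed by 0.27 (SE 0.23) on the log2 scale in the 12 libraries and by 0.10 (SE 0.24) in the 10 samples. SLC43A3, listed with the family but known to carry purine nucleobases, had 0.709 ± 0.223 RPKM and -0.34 (SE 0.26). It lies 53.8 kb from SLC43A1 on the same strand. SLC16A10 (TAT1), the carrier of aromatic AA, was below the filter with 2 to 10 reads per library. Its mean was 0.627 ± 0.332 CPM in CON and 0.348 ± 0.123 CPM in MET (SD, n = 5 each), close to the floor.

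In the SLC1 family, no gene passed the test, and SLC1A1 had the smallest p of the 5. SLC1A1 (chromosome 8, 40180179 to 40253112) encodes EAAT3, a carrier of glutamate, aspartate and cysteine. It was at 1.90, 0.753, 2.28, 0.937 and 2.28 CPM in CON and at 1.17, 0.292, 1.61, 0.559 and 0.617 CPM in MET. Of the CON samples, 3 lay above the highest MET value and 2 among the MET values, and 3 of 5 MET samples lay below all CON samples. These were 3 to 22 reads per library, where counting error is large. The means were 1.63 ± 0.737 and 0.849 ± 0.531 CPM (SD, n = 5 each). The log2 fold change was -0.89 (SE 0.39, unadjusted p = 0.0396, FDR 0.220, edgeR), and over the 10 samples it was -0.92 (SE 0.45, unadjusted p = 0.0600, FDR 0.327, edgeR), with an exact permutation p of 0.103.

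The most abundant SLC1 carrier was SLC1A2 (EAAT2), a glutamate carrier that is known from hepatocytes around the central vein. It had 8.77 ± 4.37 RPKM (SD, n = 10) and was at 122, 44.4, 182, 105 and 98.5 CPM in CON and 107, 81.4, 222, 75.0 and 60.1 CPM in MET. MET4 and CON3 were the highest and CON2 the lowest, and the log2 fold change was -0.05 (SE 0.33). The neutral exchangers SLC1A4 (ASCT1) and SLC1A5 (ASCT2) had 1.495 ± 0.572 and 1.30 ± 0.246 RPKM, with log2 fold changes of 0.29 (SE 0.30) and 0.26 (SE 0.18). SLC1A3 (EAAT1) had 0.265 ± 0.111 RPKM and 0.02 (SE 0.35).

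The SLC6 and SLC36 carriers showed no difference that passed the test. SLC6A9 (GlyT1), a glycine carrier, had a log2 fold change of 0.33 (SE 0.32), SLC6A12 (BGT1), a carrier of betaine and GABA, 0.19 (SE 0.44), and SLC6A6 (TauT), the taurine carrier, -0.30 (SE 0.29). All 3 were under 1 RPKM, with means of 0.740 ± 0.369, 0.472 ± 0.278 and 0.690 ± 0.239 RPKM (SD, n = 10). SLC6A12 ranged from 0.585 CPM in MET2 to 6.55 CPM in MET4. SLC6A13 (GAT2), which lies 2.8 kb from SLC6A12 on the same strand, had 0 reads in all 12 libraries, which allows up to 0.289 to 0.362 CPM. The proton-coupled SLC36A1 (PAT1), which exports AA from lysosomes, had 3.71 ± 0.515 RPKM and a log2 fold change of -0.04 (SE 0.13), and SLC36A4 had 2.12 ± 0.300 RPKM and -0.17 (SE 0.13). The 35 bases that exons of SLC36A1 share with another gene on its strand were the only such overlap among the 35 transporters.

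Of the transporters, 8 are known targets of ATF4, and 7 of these were tested. SLC3A2, SLC1A4, SLC1A5, SLC6A9 and SLC7A5 had positive log2 fold changes, SLC38A2 and SLC7A1 negative ones. The median over the 12 libraries was 0.29, beside 0.11 for all tested transporters and -0.0031 for all genes tested, and was not tested. With an unadjusted p of at most 0.05 there was 1 of 7, SLC3A2, where 20.5% of all genes had one, and SLC7A11 was under the floor.

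AA carriers of the cell surface and lysosome outside the 35 genes, listed with a helper protein, were mostly below the filter. Of 23 such genes listed, 21 were matched, of which 6 had 0 reads in every library and 6 were tested, with 0 at an FDR of at most 0.10 and 2 at an unadjusted p of at most 0.05 (edgeR), beside 4.41% and 20.5% of all genes. SLC66A1, a lysosomal exporter of cationic AA, had a log2 fold change of 0.36 (SE 0.14, unadjusted p = 0.0179, FDR 0.157, edgeR), and SLC6A14, a carrier of neutral and cationic AA, -0.66 (SE 0.26, unadjusted p = 0.0230, FDR 0.178, edgeR). Over the 10 samples SLC6A14 was at -0.55 (unadjusted p = 0.0628, FDR 0.332, edgeR) and SLC66A1 at 0.39 (unadjusted p = 0.0295, FDR 0.263, edgeR). SLC66A1 was at 17.1, 19.0, 11.6, 14.8 and 12.2 CPM in CON and 20.1, 23.2, 17.9, 16 and 20.6 CPM in MET, with overlap between the diets. The highest levels on the list were those of CLTRN, with 19.6 RPKM, which encodes collectrin, a helper of SLC6 carriers and no carrier itself, of the lysosomal SLC15A4 with 12.3 RPKM and of SLC66A1 with 5.88 RPKM.

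Of 9 mitochondrial AA carriers listed, 8 were matched and 7 were tested in the 12 libraries, 3 higher and 4 lower in MET, and 0 reached an unadjusted p of 0.05 in edgeR's test, as 20.5% of all genes did, or an FDR of 0.10. The most abundant were the glutamate carrier SLC25A22 with 50.5 RPKM, the aspartate and glutamate exchanger SLC25A13 with 38.9 RPKM and SLC25A44, a carrier of branched-chain AA, with 16.2 RPKM. SLC25A15, the ornithine carrier of the urea cycle, was at 16.5, 24.3, 23.6, 39.0 and 15.7 CPM in CON and 22.6, 11.8, 14.1, 12.7 and 7.82 CPM in MET. All MET samples but the pair lay below all CON samples. Its log2 fold change was -0.56 over the 12 libraries (SE 0.28, unadjusted p = 0.0639, FDR 0.272, edgeR) and -0.77 over the 10 samples (SE 0.30, unadjusted p = 0.0230, FDR 0.241, edgeR).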

How the data were processed

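Per the file headers and labels, the authors trimmed single-end reads of stranded poly(A) libraries, mapped them with STAR 2.5.3a (bovine assembly UMD 3.1.1) and counted them per RefSeq gene on the sense strand with featureCounts of Subread 1.5.2, without reads that matched several genes. The authors deposited raw counts per gene, which were used here. Symbols came from a RefSeq gene table by Entrez ID, which matched all 35 transporters. CPM after TMM, filtering by filterByExpr (minimum count 10, minimum total 15) and the quasi-likelihood test were computed with edgeR 4.0.16 in R 4.3.3 with diet alone. FDR is the Benjamini-Hochberg adjusted p over all 13212 genes tested. Exact tests used log2 CPM with a prior count of 2 and all 252 arrangements of the 10 samples or 924 of the 12 libraries, and relations 100000 resamples, or all 14400 arrangements within diets for centred values. RLE, library size alone, DESeq2 1.42.0, voom of limma 3.58.1, other filters, robust estimation, a length correction (loess span 0.5), replicate blocks and left-out libraries were alternatives. Transporters named in full were the 6 with the highest RPKM and those with an unadjusted p of at most 0.05 or without overlap. In the other lists, genes with such a p or the 3 most abundant were named, and SLC25A15 was added after its values were seen. The members and lists were chosen with earlier results of these data known. Steps were tested on simulated data. Figures were drawn with Python and matplotlib. Sequences were not used here.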

Additional observations from a re-analysis of the deposited data

Results flagged for a closer look

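In 2 of the 54 groups of 5 samples (27 transporters in 2 diets), 1 sample stood far from the other 4, where chance gives about 1 in 20 groups. SLC1A2, the glutamate carrier EAAT2, was at 222 CPM in MET4, with 60.1 to 107 CPM in the other MET samples. SLC6A9, the glycine carrier GlyT1, was at 6.14 CPM in MET2, with 1.61 to 2.81 CPM in the other MET samples.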

How the results depend on the processing

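The count of transporters with an FDR of at most 0.10 was 0 under every alternative but DESeq2 over the 12 libraries, which called 1, SLC3A2, and the fits that leave out 1 library, which called 0 to 1 (1 without CON6, again SLC3A2). The count at an unadjusted p of at most 0.05, 4 in the report, was 2 with the reads of each alike pair summed and 2 to 5 with 1 library left out (2 without CON3). It was 4 with replicate numbers as blocks, with SLC38A4 in place of SLC7A7, and 5 with blocks and the length trend removed. The deviations of same-numbered libraries from their diet means had correlations of -0.19 to 0.148, and only that of number 1 was above 0.1. Such values cannot show whether same-numbered libraries shared a block, because a shared block need not leave a correlation across all genes. Among alternatives chosen after seeing the data, DESeq2 over the 10 samples gave 2, and leaving out a pair or library from the 10 samples gave 0 to 4: 0 without CON3, 1 without the CON pair, CON6, MET5 or MET6, and 2 without MET2. The other surface and lysosomal carriers with such a p were 1 over the 10 samples, SLC66A1, in place of 2. The mitochondrial carriers were 1 over the 10 samples, 2 after the length correction and 2 with the replicate block, in place of 0. The log2 fold changes of the 8 transporters given in full kept their sign under all 35 alternatives. For SLC3A2 they ran from 0.27 to 0.44, with an unadjusted p of at most 0.05 in 32 of 35, for SLC43A1 from 0.28 to 0.48 with 30 of 35, for SLC7A7 from 0.14 to 0.34 with 19 of 35 and for SLC1A1 from -1.21 to -0.71 with 19 of 35. Of the other 4, SLC38A2 ran from -0.53 without MET4 to -0.08 without CON3 (10 samples), SLC38A3 from 0.067 without CON3 to 0.47 without the CON pair (10 samples), SLC38A4 from -0.49 without MET4 to -0.15 without MET2 (10 samples), and SLC38A10 from 0.14 without CON6 (10 samples) to 0.31 (0.27 at most with 1 library left out), with an unadjusted p of at most 0.05 in 0, 0, 3 and 8 of 35. Depth limits the statements on the 8 transporters below the filter and on tested ones with few reads. Among these were SLC1A1, SLC1A3 (2 to 19 reads per library), SLC7A6 (7 to 26) and SLC6A12 (6 to 57).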
